A study of Homo sapiens with 4 samples.

Results

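Histone genes were examined for the poly(A) tails that their mRNAs carry in 2 human esophageal squamous cell carcinoma (ESCC) lines, KYSE30 and TE-1. PAS-seq, a method that reads RNA from its poly(A) end, was performed on 4 libraries, with cells of each line treated with 20 mM l-lactate for 24 h or given PBS. The control samples carry other line names in 1 label field, and the line names used here come from their titles and from the study's text. Each group is 1 library of 1 established line, no gene was altered in any group, and whether the cultures were separate is not stated. The members were the 95 protein-coding genes of GENCODE 44 whose symbols mark them as H1, H2A, H2B, H3, H4, H2AZ, H2AX or MACROH2A genes. Of these, 69 were clustered replication-dependent genes and 26 were variant genes. Poly(A) site clusters (PACs) were taken from the start of each gene to 1000 nt past its end on the same strand, which gave 27 of the 17627 PACs in the series, in 20 of the 11758 genes with a PAC.

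Clustered histone genes supply the bulk of new histones during S phase. Their mRNAs are usually unspliced and end just after a conserved stem-loop, bound by SLBP, without a poly(A) tail. Variant histone genes mostly lie singly in the genome, are often spliced, are made outside S phase as well, and mostly end at ordinary polyadenylation signals. An assay that primes on poly(A) therefore reads variant transcripts and, of the clustered genes, those RNAs that were polyadenylated.

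The stem-loop was sought in the reference genome (GRCh38) within 300 nt after each annotated stop codon, as 6 paired positions around a loop of 4 nt. It was found in 68 of 69 clustered genes, the exception being H2BC12L on chromosome 21. Among variant genes, a class set here by symbol, it was found in 4 of 26, namely H1-6, H2AX, H3-4 and H3-7. Of 19951 other protein-coding genes, 38 (0.190%) held the pattern. In the clustered genes it began between 23 and 68 nt past the stop codon, with a median of 36 nt. These 16-nt elements are shown because they mark where clustered histone mRNAs normally end. The loop is in capitals, and the first form was shared by 41 of the 72 genes.
H1-2 stem-loop, chr6:26055744-26055759, minus strand: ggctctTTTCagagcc
H3C6 stem-loop, chr6:26225596-26225611, plus strand: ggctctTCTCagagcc
H2AX stem-loop, chr11:119094898-119094913, minus strand: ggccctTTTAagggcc

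The last 30 nt before the poly(A) site are shown for the 5 clustered genes with the highest mean TPM and for H2AC8. The poly(A) signal, or the nearest variant of it, is in capitals, and the last base is the dominant site, the position with the most tags.
H1-2, chr6:26055706-26055735, minus strand: tctcAATAAAagagctggataatttcttta
H2AC8, chr6:26217448-26217477, plus strand: aaagtgctggAATACAcatacgatgcctga
H2AC6, upstream PAC, chr6:26138345-26138374, plus strand: ttataTATAAAgaatccatccctcaactta
H2AC6, downstream PAC, chr6:26138927-26138956, plus strand: acagcacaAATAAAattattttcaaattta
H2BC5, chr6:26171318-26171347, plus strand: tataattAATAAAatctgcggagaattgta
H2AC25, chr1:228456980-228457009, minus strand: atctgatATTAAAagtatttatgatctcta
H2BC21, chr1:149884461-149884490, minus strand: ttgttattAATAAAgttaccaattaattta

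The libraries held 7174991 to 10393800 tags, and levels are TPM, the tags of a gene scaled to the tags of its library, with 1 tag for each RNA end and so no dependence on gene length. In bulk RNA, fewer cells that make a transcript cannot be told apart from less of it in each cell. A single-base PAC was listed in no library below TPM 3.07, and wider PACs were listed down to 1.06. A gene with no PAC in a library's table is therefore called not listed, since its level was not measured as 0. Of the 27 PACs, 6 of 12 clustered and 2 of 15 variant ones were single-base, against 26.6% of all PACs. Squamous markers differed between the lines: 6 of 9 were listed in both KYSE30 libraries, and 4 and 3 in TE-1. KRT5 and KRT14 were listed in neither line, TP63 and SOX2 only in KYSE30, KRT17 only in TE-1 at 187 and 245 TPM, and CDH1 at 228 and 204 TPM in KYSE30 but at 1.30 TPM or not listed in TE-1. None of 4 white blood cell markers was listed. Of 4 fibroblast markers, 2 were listed in TE-1 only, at a summed 8.50 and 12.5 TPM, and CDH5, an endothelial marker, in KYSE30 only, at 11.2 and 16.2 TPM. The part of these differences in the results below was not tested.

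Polyadenylated RNA was recorded for 11 of 69 clustered genes and for 9 of 26 variant genes. All 9 variant genes were listed in every library. Clustered genes were listed more unevenly, with 11 and 9 in the l-lactate and PBS libraries of KYSE30 and 5 and 6 in those of TE-1. By family, the listed clustered genes were 1 of 5 H1, 3 of 17 H2A, 4 of 19 H2B, 2 of 13 H3 and 1 of 15 H4 genes. Variant genes made up most of the signal. Their summed level was 3881 TPM (95% Wilson interval of counting error 3836 to 3927) with l-lactate and 3767 TPM (3723 to 3811) with PBS in KYSE30. TE-1 cells had 3864 TPM (3823 to 3906) and 3577 TPM (3541 to 3613). The clustered genes summed to 290 TPM (278 to 303) and 284 TPM (272 to 296) in KYSE30. The corresponding sums in TE-1 cells were 77.1 TPM (71.4 to 83.2) and 83.0 TPM (77.7 to 88.8). The ratio of KYSE30 to TE-1 was 3.76 (3.44 to 4.11) with l-lactate and 3.42 (3.16 to 3.70) with PBS for the clustered sum. Genes not listed in TE-1 cells enter this sum as 0, and over the 6 clustered PACs present in every library, in 5 genes, the ratio was 3.32 (3.04 to 3.64) and 3.23 (2.97 to 3.51). For the variant sum it was 1.00 (0.989 to 1.02) and 1.05 (1.04 to 1.07). All intervals here cover counting error only, since tags without molecular identifiers are not independent molecules and there is 1 library per group.

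**Figure D1:**
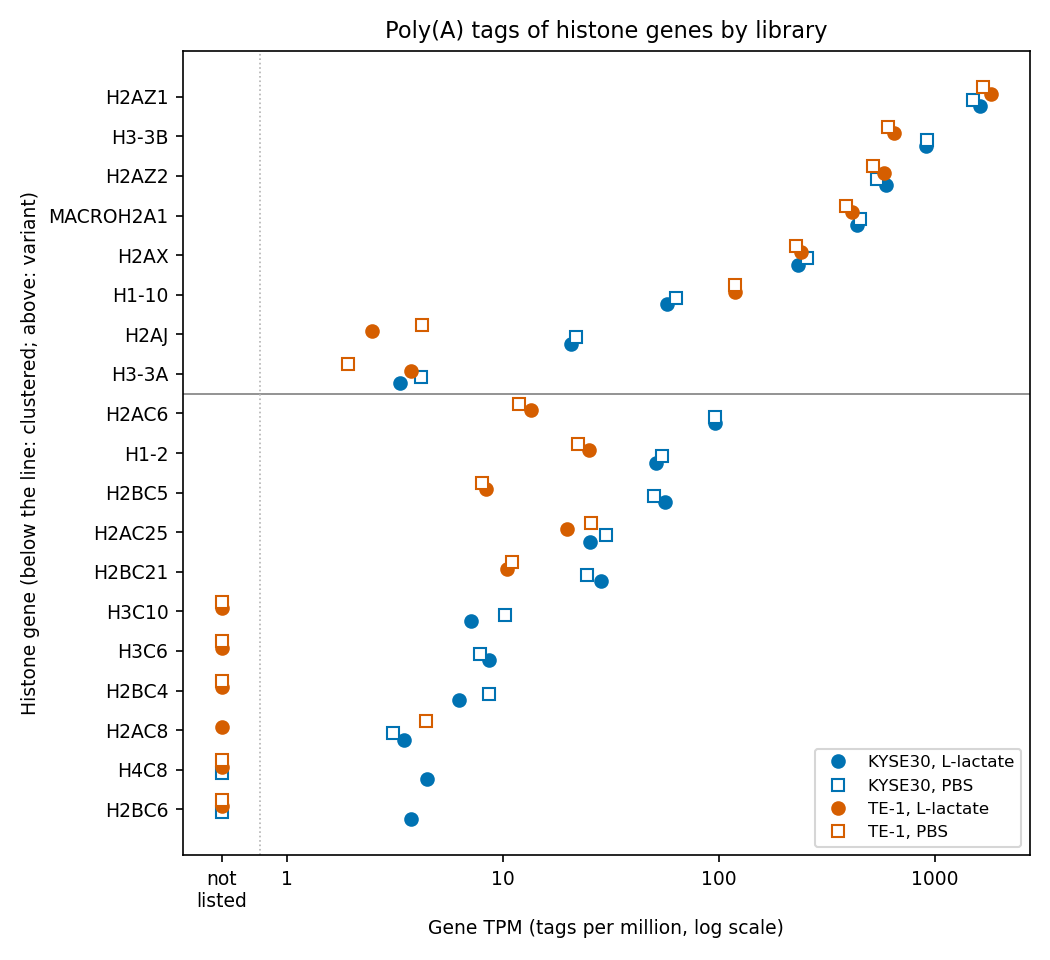
Gene TPM (log scale) of 19 histone genes with a listed PAC in the 4 libraries, variant genes above the line and clustered genes below it, ordered by mean TPM; points at the left were not listed in that library. The 5 variant genes at the top lie above 200 TPM in every library, whereas no clustered gene exceeds 95.6 TPM. For H1-2, H2AC6, H2BC5 and H2BC21 both TE-1 points sit to the left of both KYSE30 points. For H2AC25 and H2AC8 they do not. H2BC4, H2BC6, H3C6, H3C10 and H4C8 were not listed in TE-1 cells, so their TE-1 points could only lie at the left.

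The polyadenylated clustered transcripts fell into 3 kinds by where they ended. In the first kind the site lay just past the stem-loop. H1-2, which encodes a linker histone, ended 38 nt past its stem-loop and 34 nt past the annotated end of the gene, with AATAAA ending 20 nt before the site. H1-2 reached 51.1 TPM with l-lactate and 54.3 TPM with PBS in KYSE30, and 25.03 and 22.2 TPM in TE-1 cells. Both KYSE30 libraries were above both TE-1 libraries. H2AC8, a core H2A gene, ended 45 nt past its stem-loop with no AATAAA or ATTAAA in the 50 nt before the site. It stood close to the limit of listing, at 3.48 and 3.10 TPM in KYSE30, not listed with l-lactate in TE-1 cells, and at 4.43 TPM with PBS.

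In the second kind the transcript ran on for 389 to 1856 nt past the stem-loop to an annotated end, with no annotated intron after the stop codon. It comprised H2AC25, H3C10, H2BC21 and H3C6. H2AC25 had 25.2 and 29.9 TPM in KYSE30 and 19.8 and 25.5 TPM in TE-1 cells, so that the lines overlapped. H2BC21 had 28.4 and 24.4 TPM in KYSE30 and 10.4 and 10.97 TPM in TE-1 cells. The 2 H3 genes were listed in KYSE30 only, H3C10 at 7.11 and 10.2 TPM and H3C6 at 8.64 and 7.81 TPM. The single-base PAC of H3C6 would not be listed in TE-1 cells below TPM 3.07 or 3.08.

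In the last kind the site lay 7526 to 14272 nt past the stem-loop, with an annotated intron between the stop codon and the site. H2AC6, a core H2A gene, was the clustered gene with the highest mean, at 95.3 and 95.6 TPM in KYSE30 and 13.5 and 11.9 TPM in TE-1 cells. It ended at a pair of PACs in the last exon of a spliced transcript, and the downstream PAC with AATAAA held 84.6% (81.8 to 87.2) and 88.2% (85.6 to 90.3) of its tags in KYSE30. In TE-1 cells that share was 82.5% (74.4 to 88.3) and 85.5% (78.2 to 90.6), so the intervals of the lines overlapped. H2BC5, a core H2B gene, had 56.2 and 49.8 TPM in KYSE30 and 8.38 and 7.99 TPM in TE-1 cells. H2BC4 was listed in KYSE30 only, at 6.27 and 8.62 TPM, at an intronic single-base site. H4C8 was listed only with l-lactate in KYSE30, at 4.46 TPM, at the end of a transcript annotated as a target of nonsense-mediated decay. The remaining PAC, of H2BC6, lay in an intron upstream of the coding region and was listed only in that same library, at 3.76 TPM.

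**Figure D2:**
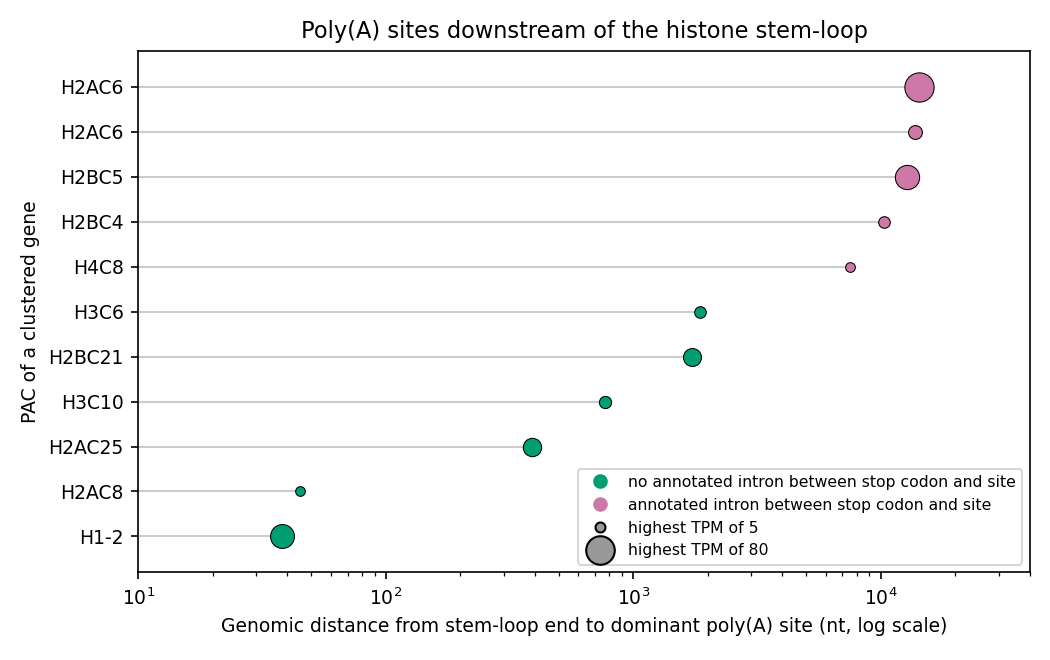
Genomic distance (nt, log scale) from the end of the stem-loop to the dominant poly(A) site for the 11 PACs of clustered genes that lie downstream of it; colour marks an annotated intron between stop codon and site, and point area the highest TPM in any library. Sites run from 38 nt (H1-2) to 14272 nt (H2AC6), and the 5 sites past 2000 nt are those with an annotated intron.

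The makeup of the clustered sum differed between the lines. PACs at least 2000 nt past the stem-loop held 55.9% and 54.3% of clustered TPM in the l-lactate and PBS libraries of KYSE30 cells, but 28.3% and 23.99% in those of TE-1 cells. PACs between 100 and 2000 nt past it held 23.9% and 25.5% in KYSE30 and 39.2% and 43.9% in TE-1 cells. The leading clustered gene was H2AC6 in both KYSE30 libraries, with 32.9% and 33.7% of clustered TPM. In TE-1 cells it was H1-2 with l-lactate (32.5%) and H2AC25 with PBS (30.7%).

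The shares of histone PACs with a poly(A) signal or UGUA lay near those of all PACs. AATAAA or ATTAAA lay in the 50 nt before the dominant site in 10 of 12 clustered PACs (83.3%, Wilson 95% interval 55.2 to 95.3) and in 12 of 15 variant PACs (interval 54.8% to 93.0%), against 83.1% of all PACs. UGUA, the motif bound by NUDT21 (searched as TGTA on the transcribed strand), lay in the 100 nt before the site in 8 of 12 clustered and 9 of 15 variant PACs, against 57.0% of all PACs. The stem-loop lay in the 100 nt before the site in 2 of 12 clustered PACs, those of H1-2 and H2AC8, and in none of 15 variant PACs, against 0.0341% of all PACs. No histone PAC was followed by A-rich genomic sequence, defined as a run of 6 A or at least 7 A in 10 nt, which was present at 1.62% of all PACs. With 12 and 15 PACs these shares are known only broadly. The dominant site lay within 10 nt of an annotated transcript end in 6 clustered and 11 variant PACs. No dominant site fell in an exon of another gene.

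The variant genes described here were ordered by level as H2AZ1, H3-3B, H2AZ2, MACROH2A1, H2AX, H1-10, H2AJ and H3-3A. H2AZ1 and H2AZ2 encode the 2 forms of H2A.Z, which occupies nucleosomes next to promoters. H2AZ1 had 1608 and 1498 TPM with l-lactate and PBS in KYSE30 and 1816 and 1655 TPM in TE-1 cells, or 39.8% to 47.0% of all variant histone TPM. H2AZ2 had 592 and 537 TPM in KYSE30 and 577 and 514 TPM in TE-1 cells. Its 3 PACs were used unequally. The most upstream one, with GATAAA in place of a main signal, held 93.6% (92.8 to 94.3) and 92.9% (92.0 to 93.6) of its tags in KYSE30 and 86.7% (85.7 to 87.6) and 87.7% (86.7 to 88.5) in TE-1 cells. The middle one, with TATAAA, held 5.83% and 6.05% in KYSE30 and 12.1% and 11.3% in TE-1 cells, and the intervals of the lines did not overlap. These ends are shown because the H2A.Z genes carry most variant tags, with the signal or its variant in capitals.
H2AZ1, chr4:99948090-99948119, minus strand: gtggataagttcAATAAAggtcatatccca
H2AZ2, upstream PAC, chr7:44834229-44834258, minus strand: ggaattGATAAAccattttttacaaaatta
H2AZ2, middle PAC, chr7:44831977-44832006, minus strand: atgttcTATAAActgacagatctagagggc

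H2AX, whose product is phosphorylated around DNA breaks, has both a stem-loop and a poly(A) signal. Its polyadenylated form ended 1022 nt past the stem-loop, after ATTAAA, at 233 and 256 TPM in KYSE30 and 240 and 228 TPM in TE-1 cells, so that the lines overlapped. MACROH2A1, which encodes an H2A with a large macrodomain, had 434 and 447 TPM in KYSE30 and 411 and 385 TPM in TE-1 cells. H3-3A and H3-3B encode the same H3.3 protein, the replacement form of H3, yet differed widely here. H3-3B had 909 and 918 TPM in KYSE30 and 647 and 607 TPM in TE-1 cells. H3-3A had 3.35 and 4.17 TPM in KYSE30 and 3.78 and 1.92 TPM in TE-1 cells, from 20 to 32 tags. Only 1 PAC was assigned to H3-3A, at the annotated end of a transcript. H3.3 and H2A.Z genes have near-identical processed pseudogenes, and how reads that matched several places were counted is not given in the sources used here, so these levels are uncertain. None of 47 H3 and 8 H2A.Z pseudogenes held a PAC. H1-10, a linker histone variant, had 57.6 and 63.2 TPM in KYSE30 and 119 TPM in both TE-1 libraries. It was thus lower in KYSE30, whereas the clustered linker gene H1-2 was higher there. H2AJ, a near copy of the core H2A protein, had 20.6 and 21.7 TPM in KYSE30 and 2.48 and 4.23 TPM in TE-1 cells. The most downstream of its 3 PACs, a single-base one, held 48.6% and 48.4% of its tags in KYSE30 and was not listed in TE-1 cells.

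The lines were compared by limma on log2(TPM + 1), with the 2 treatments of a line standing in for repeats of it. The fit measures the spread between these 4 libraries, which may be technical. Of all 11758 genes tested, 35.2% were higher in KYSE30 and 33.4% higher in TE-1 cells at an adjusted p below 0.05 (68.6% in either direction), and the median difference was 0.03. Among clustered genes, 7 of the 11 listed were higher in KYSE30 and none in TE-1 cells, with a median difference of 1.23. A clustered gene listed in KYSE30 alone could only come out higher there, so neither the count nor the median supports a direction, and the other 58 clustered genes were not tested. H2AC6 differed by 2.82 ± 0.10 (log2, SE, adjusted p = 7.27e-05) and H2BC5 by 2.55 ± 0.11 (adjusted p = 1.12e-04). H2BC21 differed by 1.23 ± 0.14 (adjusted p = 0.00133) and H1-2 by 1.13 ± 0.11 (adjusted p = 9.39e-04). On tags, H2AC6 was 7.08-fold (counting interval 5.80 to 8.71) and 8.01-fold (6.61 to 9.78) higher in KYSE30 with l-lactate and with PBS. The other 3 called genes, H2BC4, H3C6 and H3C10, were not listed in TE-1 cells and are given no fold. H2AC25 (0.28 ± 0.11, adjusted p = 0.0755), H2AC8, H2BC6 and H4C8 did not pass the test.

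Variant genes went both ways. H2AJ (2.38 ± 0.19, adjusted p = 5.22e-04) and H3-3B (0.54 ± 0.06, adjusted p = 0.00101) were higher in KYSE30. The size for H2AJ rests in part on the single-base PAC not listed in TE-1 cells. That size was 1.48 without PACs missing from any library and 1.65 with a pseudocount of 5, and the gene passed the test in both. H1-10 (-0.97 ± 0.08, adjusted p = 6.11e-04) and H2AZ1 (-0.16 ± 0.04, adjusted p = 0.0267) were higher in TE-1 cells. The call on H2AZ1 was lost without a mean-variance trend in the limma fit (adjusted p = 0.253), over a range of 0.0196 to 0.253 among the alternatives. For H2AZ2, H2AX, MACROH2A1 and H3-3A the difference was between 0.05 and 0.34 and did not pass the test. The median over the 9 variant genes was 0.06.

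**Figure D3:**
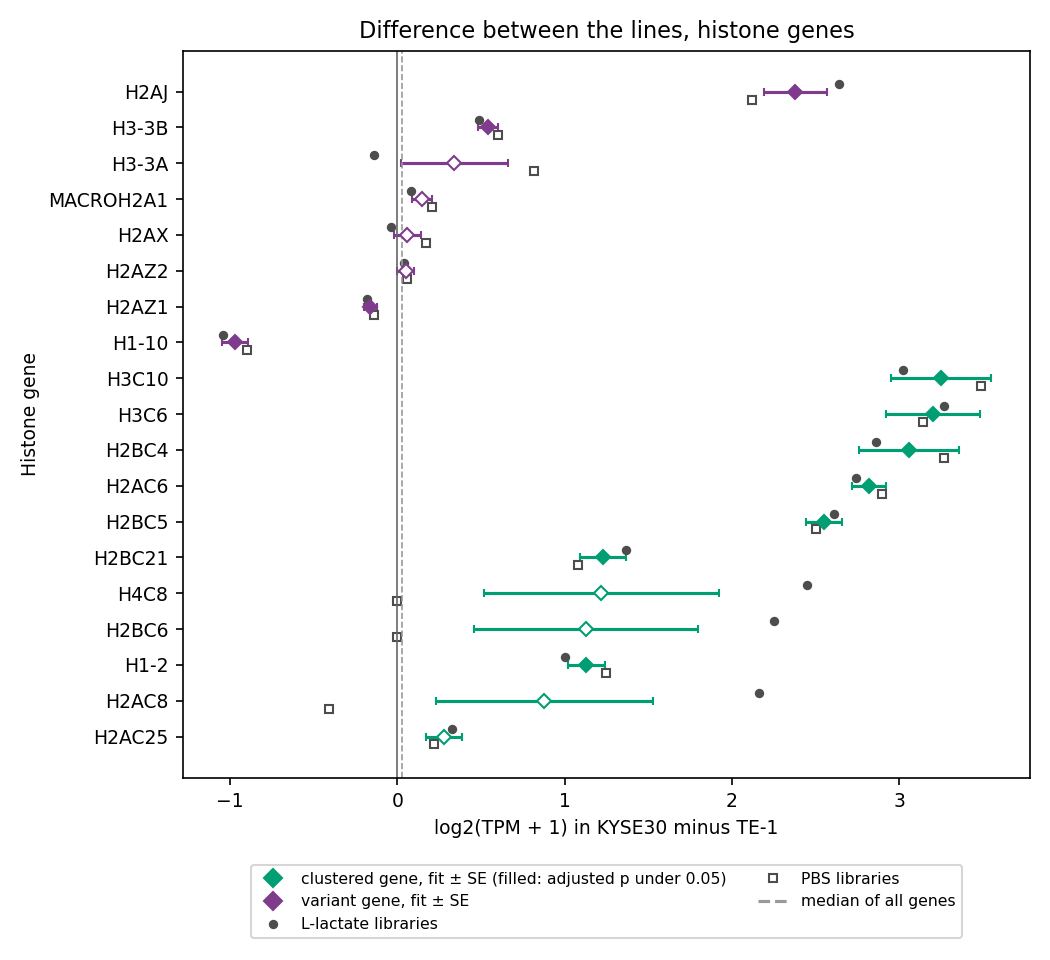
Difference in log2(TPM + 1) between KYSE30 and TE-1 cells for 19 listed histone genes: diamonds give the limma estimate with its SE, small points the difference within the l-lactate and within the PBS libraries, and the dashed line the median of all genes (0.03). Clustered genes lie at 0.28 or above, and variant genes run from -0.97 (H1-10) to 2.38 (H2AJ). Clustered genes listed in KYSE30 alone could only come out higher there. Values of genes not listed in a library depend on the pseudocount.

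Genes that act on histone mRNA ends, that carry histones or that mark S phase were set beside the members, from lists chosen for their function. Of all genes tested, 35.2% were higher in KYSE30 and 33.4% higher in TE-1 cells at the same threshold. All 16 genes of histone mRNA 3′ processing were listed in every library, with 2 higher in KYSE30 and 4 higher in TE-1 cells. SLBP, which binds the stem-loop, had 140 and 142 TPM in KYSE30 and 139 and 128 TPM in TE-1 cells and did not pass the test (0.08 ± 0.08, limma adjusted p = 0.385). SRRT, a cap-associated factor, was higher in TE-1 cells (-0.95 ± 0.07, limma adjusted p = 4.14e-04). Of 18 listed histone chaperone and exchange genes, 2 were higher in KYSE30 and 6 in TE-1 cells. HJURP, the chaperone of the centromeric H3, was the higher of the former (1.27 ± 0.08, limma adjusted p = 2.55e-04). Of 19 listed S-phase genes, 6 were higher in KYSE30 and 5 in TE-1 cells, with a median of 0.09. Summed S-phase TPM was 2804 and 3061 in KYSE30 and 2462 and 2498 in TE-1 cells. The sum leaned on a few genes. TYMS had 200 and 244 TPM in KYSE30 and 20.8 and 26.6 in TE-1 cells, and PCNA 385 and 392 against 198 and 189. RRM1 went the other way, with 197 and 206 against 448 and 419 TPM. The sum was higher in KYSE30, as was the clustered sum, but the list was split. The part of S phase in the difference between lines was not tested.

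No histone gene passed the test of l-lactate against PBS. In the limma fit over both lines the 20 members had a lowest adjusted p of 0.680, and 3 had an unadjusted p below 0.05. Of all genes, 0% passed as well (0 of 11758, with 817 at an unadjusted p below 0.05, and also 0 by limma without a mean-variance trend). The 3 members were H2AZ1 (0.12 ± 0.04), H2AZ2 (0.15 ± 0.05) and H2AC25 (-0.29 ± 0.11), on the log2 scale with SE. Each had the same direction in both lines. This agreement adds no separate support, since the genes were picked by a fit in which the lines are the only repeats of the treatment. On tags the ratio of l-lactate to PBS for H2AZ1 was 1.07 (counting interval 1.05 to 1.10) in KYSE30 and 1.10 (1.07 to 1.12) in TE-1 cells. For H2AZ2 it was 1.10 (1.06 to 1.15) and 1.12 (1.08 to 1.17). For H2AC25 it was 0.844 (0.690 to 1.03) and 0.778 (0.637 to 0.948). With TMM scaling, which rescales libraries by a trimmed mean of gene ratios, the unadjusted limma p was 0.159, 0.0837 and 0.0381 for H2AZ1, H2AZ2 and H2AC25. By limma without a mean-variance trend it was 0.323, 0.224 and 0.0722. The TMM factor was 0.980 for PBS in TE-1 cells and 1.01 for each other library, and the ratios on tags were not rescaled. A difference of the l-lactate effect between lines could not be tested with 1 library per group.

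Within a line the members were described by ratios of 1 library to 1 library. The clustered sum had a ratio of 1.02 (0.962 to 1.09) in KYSE30 and 0.929 (0.838 to 1.03) in TE-1 cells, and the variant sum 1.03 (1.01 to 1.05) and 1.08 (1.06 to 1.10). In KYSE30 cells 15 of the 18 genes listed in both libraries had counting intervals that held 1, the others being H2AZ1, H2AZ2 and H2AX (0.912, 0.854 to 0.975). In TE-1 cells 7 of 14 did. There H3-3A had a ratio of 1.96 (1.09 to 3.62), from 32 and 20 tags, while in KYSE30 it had 0.801 (0.450 to 1.41). Past a 2-fold change in TPM + 1 were H2BC6 and H4C8 in KYSE30, 2 of 20 members against 4.82% of all genes, and H2AC8 in TE-1 cells, 1 member against 4.65%. All 3 rest on a single-base PAC of 3.76, 4.46 or 4.43 TPM that was not listed in the other library, where it could lie anywhere below about 3.08 TPM. Without single-base PACs 0 members were past 2-fold in either line.

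**Figure D4:**
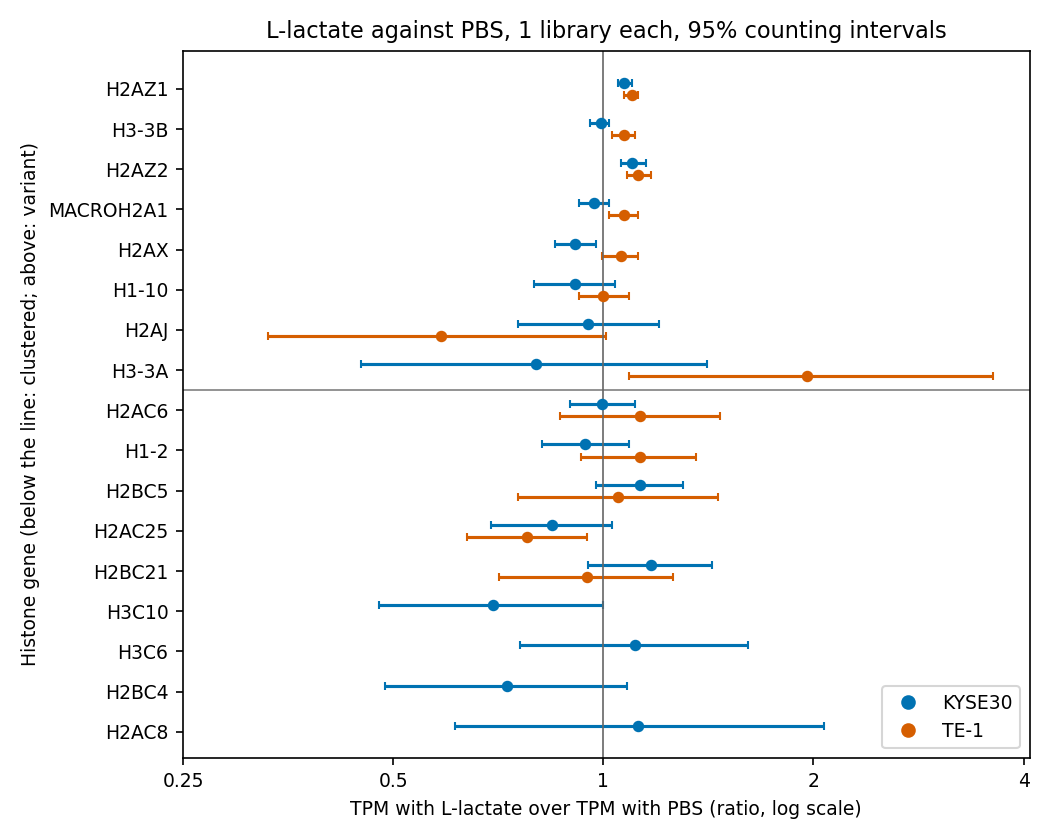
Ratio of TPM with l-lactate to TPM with PBS (log scale) in KYSE30 and TE-1 cells for the histone genes listed in both libraries of a line, with 95% counting intervals that leave out variation between cultures. H2AZ1 and H2AZ2 lie above 1 in both lines, by 1.07 to 1.12, and most clustered genes have intervals that hold 1.

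Poly(A) site choice within the histone genes was also compared between l-lactate and PBS. In KYSE30 cells all 20 PACs with TPM above 5 in both libraries kept the same dominant site. In TE-1 cells 13 of 15 did, and 1 moved by more than 24 nt. This was the main PAC of H3-3B, 815 nt long, whose dominant site with l-lactate lay 345 nt past the stop codon, 790 nt upstream of the site at 1135 nt that was dominant in the other 3 libraries. Neither site held most of the tags, with 40.9% (39.5 to 42.2) at the upstream site with l-lactate and 40.5% (39.3 to 41.7) at the downstream site with PBS. In KYSE30 cells the downstream site held 43.5% (42.3 to 44.7) with l-lactate and 45.1% (43.9 to 46.3) with PBS. In all 4 libraries both quantile positions of the PAC sat at these same 2 sites, so both were in use throughout and the shift is a change in which one led. A further end of H3-3B, 2160 nt past the stop codon, held 4.37% (3.90 to 4.89) and 5.15% (4.65 to 5.70) of the gene's tags in KYSE30 and 2.26% (1.90 to 2.69) and 3.92% (3.47 to 4.42) in TE-1 cells. The 3 ends are shown with the signal in capitals.
H3-3B, upstream site, chr17:75778250-75778279, minus strand: ccttttgcAATAAAactggttatgacttga
H3-3B, middle site, chr17:75777460-75777489, minus strand: actaaatttacaAATAAActtgtttatcca
H3-3B, distal PAC, chr17:75776435-75776464, minus strand: gatgagactaaAATAAAatttttgaagtta

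Distal usage, the share of a gene's tags in its most downstream PAC counting PACs that exceeded TPM 5 with l-lactate or with PBS, was available for H2AC6, H2AJ, H2AZ2 and H3-3B in KYSE30 and for H2AZ2 and H3-3B in TE-1 cells. No gene passed a change of 10 percentage points, but H2AZ2 and H3-3B could not have fallen that far. Their distal shares with PBS were 1.08% and 5.15% in KYSE30 and 1.01% and 3.92% in TE-1 cells. The differences, l-lactate minus PBS, were -3.52 points for H2AC6, 3.90 for H2AJ, -0.514 for H2AZ2 and -0.781 for H3-3B in KYSE30. The value for H2AJ compares 58.1% with 54.2% over 2 of its 3 PACs, and over all 3 the difference was 0.201 points. In TE-1 cells the differences were 0.260 points for H2AZ2 and -1.65 for H3-3B. The H3-3B share there was 2.26% (1.90 to 2.69) with l-lactate and 3.92% (3.47 to 4.42) with PBS, and these counting intervals did not overlap.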

How the data were processed

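The deposited tables list, for each of the 4 libraries, PACs with position, strand, dominant site and TPM. These TPM are RPM values of the authors, tags scaled to the total tags of the library with no length term. Per the study's methods reads were aligned with HISAT2 and sites were called with CAGEr, clusters of 1 site below TPM 3 were dropped, and neighbouring clusters were joined. The build is GRCh38.p14 in the submitters' notes. Every TPM below 100 was a whole multiple of 1 value per library, which gave the total tags used for counting intervals (Wilson, and an exact conditional binomial interval for ratios, both at 95%). PACs were placed on GENCODE 44 by the dominant site. Gene TPM were summed and log2(TPM + 1) was fitted over all genes with line and treatment as terms, with 1 residual degree of freedom per gene, moderated by limma (3.58.1, R 4.3.3) with Benjamini-Hochberg adjustment. The code of the fit was tried on simulated data, which do not measure the spread between real cultures. A change within a line was called at 2-fold on TPM + 1, a shift past 24 nt where TPM was above 5 in both libraries, and distal usage at 10 percentage points. Named are all variant genes with a listed PAC and the 15 clustered genes of highest mean TPM, of which 11 were listed. The values of 1 variant gene are not reported here, and it stays in sums and counts. The members and lists were chosen with earlier results of these data known. All columns of per-sample values belong to the 4 libraries. Python 3.11.15, pandas 2.3.3, SciPy 1.17.1 and pysam 0.24.0 were used.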

Additional observations from a re-analysis of the deposited data

How the results depend on the processing

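With 1 library per group, no test within a line was possible, and an unlisted PAC can hide up to about 3 TPM. No pairing by culture was possible because the labels give no replicate numbers. The fit does compare treatments within lines. A quasi-likelihood count test had been planned and was not run, since the values are normalized and lack low counts. Without a filter on low TPM the values were identical, since every gene passed. Of 166 summary values under alternatives, such as counts of called genes, 29 moved. The 328 fitted gene values include the identical ones without a filter and leave out genes that dropped from a setting. Of these 328, 326 kept direction and side of the threshold. The exceptions were H2AZ1 between lines (-0.16, adjusted p = 0.253, limma without a mean-variance trend, added after seeing the data) and MACROH2A1 with l-lactate, which reversed to -1.09 (adjusted p = 0.674) with PACs within the gene only, as its main PAC ends 1 nt past the gene. Clustered genes called higher in KYSE30 cells were 4 rather than 7 both at a mean TPM of at least 5 and when PACs missing from any library were left out, since H2BC4, H3C6 and H3C10 drop out. Calls for l-lactate over all genes were 0 to 2, except 157 of 9271 with only PACs listed in all 4 libraries, none of them a histone gene. Genes past 2-fold within a line were 0 in both lines with a pseudocount of 5, a mean TPM of at least 5, only PACs listed in all 4 libraries, or without single-base PACs (added after seeing the data), and 0 in TE-1 cells with PACs within the gene only. At 1.5-fold, 3 genes passed in TE-1 cells (H2AC8, H2AJ and H3-3A). With PACs within the gene only, clustered sums with l-lactate and PBS were 231 and 226 TPM in KYSE30 and 52.1 and 56.4 TPM in TE-1 cells. Variant sums were 3448 and 3324 TPM in KYSE30 and 3454 and 3192 TPM in TE-1 cells. Left out there were the PACs of H1-2, H2AC8 and H4C8 and the main PAC of MACROH2A1, which end just outside their annotation. With PACs missing from any library left out (added after seeing the data), KYSE30 clustered sums were 256 and 254 TPM and 5 clustered genes were listed. Without single-base PACs, clustered sums were 238, 234, 57.3 and 53.1 TPM and 5 clustered genes were listed. With PACs above TPM 1 in 1 library, 1 gene passed the distal usage threshold in TE-1 cells, H2AJ, by 20.3 points on 21 and 44 tags.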

Other observations

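Beyond the 1000 nt window, widening to 5000 nt added 1 PAC to the histone genes, past the end of H2AC11 on chromosome 6, at 11.4 and 11.6 TPM with l-lactate and PBS in KYSE30 cells and 5.55 and 4.62 TPM in TE-1 cells.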
